A study of Mus musculus with 12 samples.

Results

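Leukotrienes are lipid mediators made from arachidonic acid, and 7 genes of their synthesis and sensing were followed in mouse bone marrow-derived macrophages (BMDMs): Alox5, Alox5ap, Alox15, Lta4h, Ltc4s, Cysltr1 and Ltb4r1. They were taken by symbol from the 23361 gene symbols that the 12 tables of normalised expression share, and each of the 7 was found. Alox5 encodes 5-lipoxygenase, which works with its helper protein FLAP (encoded by Alox5ap) to turn arachidonic acid into the unstable epoxide leukotriene A4. Lta4h then gives leukotriene B4, a neutrophil attractant sensed by the receptor BLT1 (encoded by Ltb4r1), whereas Ltc4s joins the epoxide to glutathione and so starts the cysteinyl leukotrienes, which contract airway muscle and are sensed by the receptor CysLT1 (encoded by Cysltr1). Alox15 encodes the mouse 12/15-lipoxygenase, which oxidises arachidonic acid at other carbons and is known from resident peritoneal macrophages and eosinophils.

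Wild-type mice, on the C57BL/6 background per the study's methods and 8 to 12 weeks old, gave the bone marrow, and the cells were differentiated for 6 days in L929 cell supernatant as the source of MCSF. All 4 groups share this culture. Control BMDMs got neither agent, IL-4 BMDMs got IL-4 at 20 ng/ml for 24 h, LPS BMDMs got LPS at 100 ng/ml for 3 h, and IL-4-pretreated and LPS-activated BMDMs (IL-4+LPS) got IL-4 for 24 h and then LPS for 3 h. The LPS dose is that of the sample labels, since the methods text gives its unit as nM. Whether IL-4 BMDMs were harvested at 24 h or together with the IL-4+LPS cells is not given in the sources used here, so time after IL-4 may differ between those groups. IL-4 drives alternative macrophage polarization, LPS is a bacterial wall component that triggers inflammatory activation, and the design asks how IL-4 changes basal and LPS-induced expression. Each group held 3 samples, numbered 1 to 3. According to a figure legend, the samples came from 3 animals in independent experiments that were fewer than the animals. Samples of different groups thus share animals, and some animals share an experiment. Neither the legend nor the labels tie a number to an animal or experiment. The main tests have no term for the animal, and their p-values measure the spread between these samples. Values are FPKM (fragments divided by transcript length and by the fragments mapped in the library), which allow levels to be set side by side between genes.

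Libraries numbered 1 were the shallowest of their group, with the relative depth of the 12 libraries running from 0.991 to 3.30 times that of control replicate 1. Macrophage markers were high in every sample (6 of 7 listed symbols found). Their summed level was 19160 to 20530 FPKM in control, 7556 to 7770 in IL-4, 15380 to 16610 in LPS and 6551 to 6935 in IL-4+LPS, so it was lower in every sample with IL-4 than in every sample without it. The sum mainly follows Lyz2, at 4183 to 16510 FPKM over the samples, since the next highest marker, Cd68, reached at most 1881 FPKM. The paper names Lyz2 among genes that IL-4 represses, so the sum does not measure macrophage content. B and T cell markers summed to at most 0.314 FPKM and the 6 mast cell markers to at most 0.637 FPKM, with Tpsb2 and Mcpt4 at 0 in all 12 samples. The 3 eosinophil markers found summed to 2.05 to 10.95 FPKM and the 2 basophil markers to at most 3.12 FPKM. Nearly all of the eosinophil sum was Prg2 (1.98 to 10.78 FPKM), with Epx at most 0.238 and Il5ra at most 0.0241 FPKM. The neutrophil granule genes Elane, Mpo, Camp, Ltf and Ngp (5 of 6 listed markers; Ly6g was not analysed here) were not at 0. Their summed level was 75.8 to 164.8 FPKM in control, 28.6 to 74.5 FPKM in IL-4, 84.7 to 202.6 FPKM in LPS and 61.5 to 142.6 FPKM in IL-4+LPS, lowest in replicate 1 of each group. Since neutrophil precursors can also express leukotriene genes, the sums of both marker lists are given here, and their part in the results below was not tested.

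The 7 genes lie on 6 chromosomes of the mm10 build and all are protein-coding: Alox5 at chr6:116410071-116461178 (minus strand), Alox5ap at chr5:149265058-149288047 (plus), Alox15 at chr11:70344147-70352031 (minus), Lta4h at chr10:93453396-93484896 (plus), Ltc4s at chr11:50236472-50238471 (minus), Cysltr1 at chrX:106576517-106603462 (minus) and Ltb4r1 at chr14:55765962-55768492 (plus). None shared a 50-base word with the transcripts of another gene. Exons of Alox5ap and Ltc4s overlap the antisense genes Gm19719 and Gm26542, and since the library kit does not mark strand, reads of each pair cannot be told apart.

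Promoters were found in RefSeq (GRCm38.p6) for 4 of the 7 genes: Alox5, Lta4h, Ltc4s and Ltb4r1. The 250 bases before the annotated start are printed 5′ to 3′ on the gene's strand for Ltb4r1 and Lta4h, which were higher with IL-4 and lower with LPS, and for Alox5, the lipoxygenase with a measurable level. Capitals mark GAGGAA on either strand (TTCCTC when it lies on the other strand), the core that PU.1 and other ETS factors bind.
Ltb4r1 promoter, chr14:55765712-55765961 (plus strand): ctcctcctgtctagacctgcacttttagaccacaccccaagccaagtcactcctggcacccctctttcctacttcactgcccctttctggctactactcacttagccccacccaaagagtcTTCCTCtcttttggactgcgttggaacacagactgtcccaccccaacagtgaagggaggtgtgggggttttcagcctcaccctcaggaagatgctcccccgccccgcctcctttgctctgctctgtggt
Lta4h promoter, chr10:93453146-93453395 (plus strand): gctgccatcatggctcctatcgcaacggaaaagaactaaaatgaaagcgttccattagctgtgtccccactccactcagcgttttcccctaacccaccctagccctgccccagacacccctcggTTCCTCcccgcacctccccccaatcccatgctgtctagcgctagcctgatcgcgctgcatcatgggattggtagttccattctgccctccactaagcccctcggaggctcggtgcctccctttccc
Alox5 promoter, chr6:116461179-116461428 (minus strand): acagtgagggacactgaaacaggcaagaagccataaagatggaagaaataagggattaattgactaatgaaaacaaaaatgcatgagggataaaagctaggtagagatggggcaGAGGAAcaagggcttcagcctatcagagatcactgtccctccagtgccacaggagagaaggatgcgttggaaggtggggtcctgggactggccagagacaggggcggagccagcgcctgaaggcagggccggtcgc
The core began 129 bases before the start in Ltb4r1, 126 in Lta4h and 136 in Alox5, and was not in the Ltc4s window. It occurred in 23.3% of 32851 mouse promoter windows of the same length. The STAT6-type motif TTCNNNNGAA (5.85% of windows), the STAT-type motif TTCNNNGAA (7.02%) and the kappaB motif (7.25%), each searched on both strands, were in none of the 4 windows. The 2 STAT motifs differ in spacer length, and matches were counted separately for each.

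Alox5ap was by far the most abundant of the 7 mRNAs in control BMDMs, at 645.5 ± 25.6 FPKM (SD, n = 3). Lta4h followed at 39.1 ± 1.50 FPKM, then Cysltr1 at 8.38 ± 2.92, Ltc4s at 3.14 ± 0.507, Ltb4r1 at 1.22 ± 0.402 and Alox5 at 1.14 ± 0.523 FPKM. The mRNA of the helper protein was thus abundant and that of 5-lipoxygenase itself scarce. Among the control samples only the levels of Ltb4r1 and Alox5 overlapped. Alox15 stood at 0.0163 ± 0.0193 FPKM. Differences between groups were tested with limma on log2(FPKM + 1) over 11191 rows that reached 1 FPKM in at least 1 sample, with Benjamini-Hochberg adjusted p under 0.05 as the threshold. The comparisons share groups, so their differences are not independent of each other. Of the 7 genes, 6 passed that filter. Alox15 did not, and Alox5 passed only through control replicates 2 and 3, the group where it was high, so its falls from control are described but left out of the counts below. In bulk RNA, fewer cells that express a gene and less of its RNA per cell cannot be told apart.

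**Figure D1:**
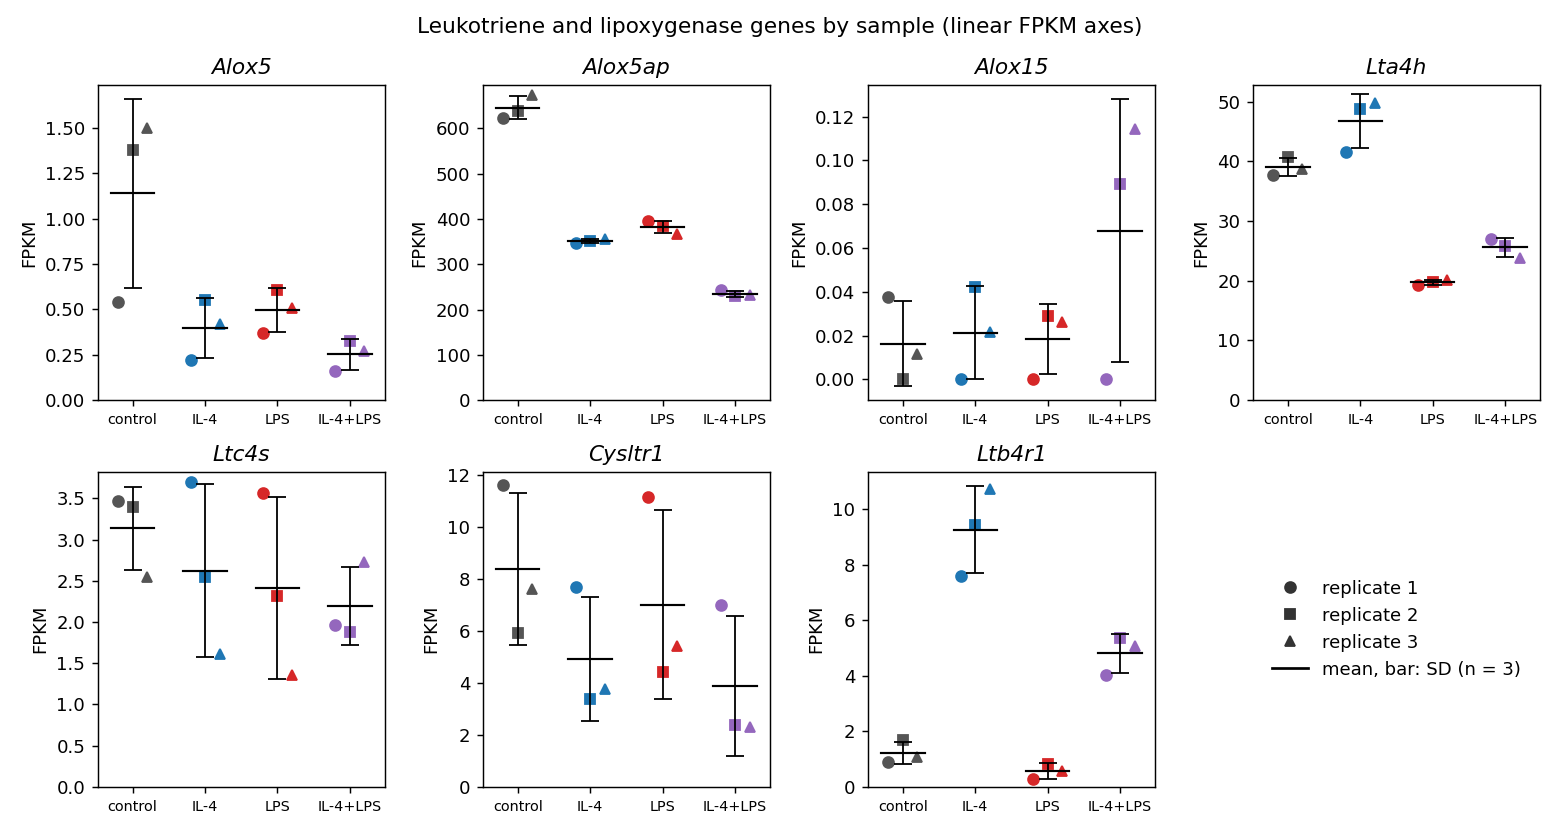
Level of each of the 7 genes in FPKM (y axes, linear, each with its own range) in the 4 treatment groups (x axes), with one symbol per sample, the shape giving its replicate number, and lines and bars giving the mean and SD of 3 samples. Ltb4r1 sits at 7.61 to 10.7 FPKM in IL-4 against 0.909 to 1.68 in control, Alox5ap is lowest in IL-4+LPS, and Cysltr1 is highest in replicate 1 of every group.

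IL-4 raised the mRNA of the leukotriene B4 receptor and lowered that of FLAP. Compared with control, Ltb4r1 and Lta4h rose, Alox5ap fell, and Ltc4s and Cysltr1 were not called. Alox5 and the untested Alox15 are left out of this count. Across all rows tested, 16.0% rose and 21.0% fell. Ltb4r1 was at 0.909, 1.68 and 1.08 FPKM in the 3 control samples and at 7.61, 9.44 and 10.7 FPKM in the IL-4 samples. Every IL-4 sample exceeded every control sample, and the mean was 7.58-fold higher. On the log2(FPKM + 1) scale the difference was 2.21 (SE 0.177, limma adjusted p = 6.96e-06), which understates the fold because of the low control level.

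Alox5ap stood at 623.8, 638.9 and 673.8 FPKM in control and at 346.7, 351.5 and 356.7 FPKM in IL-4. The groups lay far apart relative to their spread, with a mean 1.84-fold lower in IL-4 and a log2 difference of -0.87 (SE 0.0552, limma adjusted p = 1.46e-06). The summed macrophage markers, which mainly follow Lyz2, and the neutrophil granule genes were also lower in IL-4, as given above.

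Alox5 gave 0.539, 1.38 and 1.50 FPKM in control and 0.223, 0.553 and 0.419 FPKM in IL-4. Like the summed neutrophil granule genes, it was lowest in replicate 1 of every group, and their part in its level was not tested. The groups overlapped through control replicate 1, and the log2 difference of -0.59 (SE 0.174) had a limma adjusted p of 0.0229. These levels correspond to about 17, 58 and 156 fragments in control and 7, 31 and 23 in IL-4, and the call was lost without control replicate 2 (-0.49, limma adjusted p = 0.0803), control replicate 3 (-0.46, 0.0850), IL-4 replicate 1 (-0.49, 0.0723) or IL-4 replicate 3 (-0.60, 0.0548). It was also lost under quantile normalization (-0.37, limma adjusted p = 0.106), with no filter (0.0553) and with only the groups compared (0.0729).

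Lta4h, whose enzyme makes leukotriene B4, was at 37.8, 40.7 and 38.8 FPKM in control and 41.5, 48.7 and 49.9 FPKM in IL-4. The IL-4 samples were all above the control samples, but by only 19.5% in the mean. The log2 difference was 0.25 (SE 0.0782, limma adjusted p = 0.0304), and it no longer passed with only the groups compared (0.0616) or without control replicate 1 (limma adjusted p = 0.0859), control replicate 3 (0.0777), IL-4 replicate 2 (0.103) or IL-4 replicate 3 (0.119).

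With all samples and no term for the replicate number, Ltc4s and Cysltr1 of the cysteinyl leukotriene branch did not pass the test for IL-4. Ltc4s, the leukotriene C4 synthase, was at 3.46, 3.39 and 2.55 FPKM in control and 3.70, 2.55 and 1.61 FPKM in IL-4. These ranges overlapped, and the log2 difference of -0.23 had a 95% interval of -0.79 to 0.34 (limma adjusted p = 0.531). Cysltr1 was at 11.6, 5.91 and 7.62 FPKM in control and at 7.68, 3.38 and 3.75 FPKM in IL-4. It was lower in the IL-4 sample for each of the 3 replicate numbers, but replicate 1 was high in every group and the log2 difference of -0.69 had a wide interval, -1.63 to 0.26 (limma adjusted p = 0.239). With replicates 2 and 3 only, the difference was -0.76 (limma adjusted p = 0.00353). With the replicate number as a block it was -0.69 (limma adjusted p = 0.0014), so the Cysltr1 call depends on how replicate 1 is treated.

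**Figure D2:**
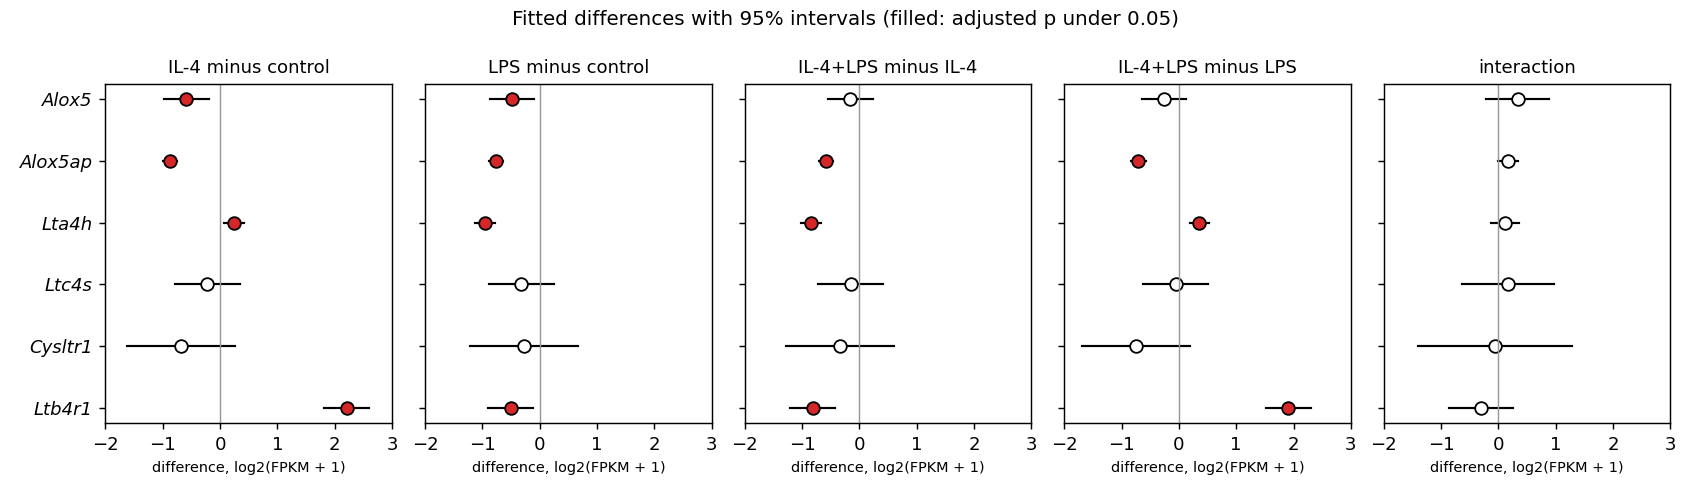
Fitted difference on the log2(FPKM + 1) scale (x axes) for the 6 tested genes (y axis) in the 4 pairwise comparisons and the interaction, with 95% intervals as lines and filled circles where the limma adjusted p was under 0.05. Alox5ap lies below 0 in all 4 pairwise panels, Ltb4r1 lies at 2.21 and 1.90 in the panels for IL-4, the intervals of Cysltr1 all cross 0, and no interaction passed.

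LPS lowered Lta4h, Alox5ap and Ltb4r1 and raised no tested gene. Ltc4s and Cysltr1 were not called, and Alox5 and the untested Alox15 are left out of this count. Of all rows, 57.7% were lower and 16.9% higher after LPS, so a fall was what most rows showed. The median log2 difference over all rows was -0.44, and it became -0.14 when samples were scaled to a common median, so each difference below is to be read against that shift. Lta4h was at 19.2, 19.7 and 20.2 FPKM in LPS against the control values given above. No sample of one group came near the other, and the mean was 1.98-fold lower, with a log2 difference of -0.95 (SE 0.0782, limma adjusted p = 1.52e-06) that became -0.60 under median scaling (limma adjusted p = 3.80e-05).

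Alox5ap fell to 395.1, 383.6 and 367.9 FPKM after LPS, 1.69-fold below control. Its log2 difference was -0.75 (SE 0.0552, limma adjusted p = 6.76e-07), and -0.38 under median scaling (limma adjusted p = 4.03e-05). Both Lta4h and Alox5ap thus lay below the all-row median under either scaling. The macrophage marker sum had a mean of 20070 FPKM in control and 15890 in LPS. That of the neutrophil granule genes was 119.5 FPKM in control and 144.2 in LPS, and the part of either was not tested.

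Ltb4r1 and Alox5 passed the test for LPS at low levels. Ltb4r1 was at 0.271, 0.832 and 0.586 FPKM in LPS, with no overlap with control, a log2 difference of -0.51 (SE 0.177) and a limma adjusted p of 0.0229. It was at -0.34 with a limma adjusted p of 0.119 under median scaling. Ltb4r1 also no longer passed with no filter (0.0631), or without control replicate 2 (0.0958) or LPS replicate 1 (0.0897). By the per-gene Tukey post hoc test its p was 0.106, adjusted over the group pairs of the gene but not over genes. Alox5 was at 0.369, 0.608 and 0.509 FPKM in LPS, where control replicate 1 fell within the LPS range. Its log2 difference was -0.49 (SE 0.174, limma adjusted p = 0.0259), and under median scaling it was -0.33 (0.102). It was also lost with no filter (0.0610), with only the groups compared (0.0658) and by the per-gene Tukey post hoc test (unadjusted p = 0.108). Under quantile normalization neither gene was called, at -0.04 for Ltb4r1 (limma adjusted p = 0.878) and -0.03 for Alox5 (0.896). Without control replicate 2, control replicate 3, LPS replicate 1 or LPS replicate 3 the limma adjusted p of Alox5 was 0.0911, 0.103, 0.0773 and 0.0540.

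Ltc4s was at 3.57, 2.32 and 1.36 FPKM after LPS, a log2 difference of -0.32 (interval -0.89 to 0.25, limma adjusted p = 0.275). Cysltr1 was at 11.2, 4.41 and 5.42 FPKM, a difference of -0.28 (interval -1.22 to 0.67, limma adjusted p = 0.571), which turned to 0.05 under median scaling. Both genes overlapped with control. With replicates 2 and 3 only, Cysltr1 gave -0.39 (limma adjusted p = 0.0282), and with the replicate number as a block -0.28 (0.0502, not called).

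In cells already exposed to IL-4, LPS lowered Alox5ap, Lta4h and Ltb4r1 and raised no tested gene. Alox15 was untested. Over all rows, 57.9% were lower and 15.0% higher in IL-4+LPS than in IL-4, with a median log2 difference of -0.41 (-0.12 under median scaling). Alox5ap was at 242.2, 229.1 and 231.3 FPKM in IL-4+LPS, the lowest of the 4 groups, 1.50-fold below IL-4 and 2.76-fold below control. Its log2 difference from IL-4 was -0.58 (SE 0.0552, limma adjusted p = 5.10e-06), and -0.22 under median scaling (0.00222). Lta4h was at 27.0, 25.8 and 23.9 FPKM, all below the IL-4 samples, with a difference of -0.84 (SE 0.0782, limma adjusted p = 4.63e-06) that became -0.49 under median scaling (0.000199). Ltb4r1 was at 4.02, 5.36 and 5.07 FPKM, a mean 1.92-fold below IL-4, and its difference was -0.81 (SE 0.177, limma adjusted p = 0.00179), or -0.50 under median scaling (0.0337). Under quantile normalization it was not called (-0.40, limma adjusted p = 0.104). Alox5, Ltc4s and Cysltr1 did not pass, with log2 differences of -0.15 (limma adjusted p = 0.441), -0.15 (0.609) and -0.34 (0.491). Cysltr1 passed with replicates 2 and 3 only (-0.45, limma adjusted p = 0.0165) and with the replicate number as a block (-0.34, 0.0230).

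IL-4 pretreatment left LPS-activated BMDMs with more Ltb4r1 and Lta4h mRNA and less Alox5ap mRNA than LPS alone. With Alox5 and the untested Alox15 left out, Ltc4s and Cysltr1 were the genes not called in this comparison. Of all rows, 15.0% were higher and 15.8% lower. Ltb4r1 was 8.55-fold higher in the mean, with every IL-4+LPS sample above every LPS sample and a log2 difference of 1.90 (SE 0.177, limma adjusted p = 2.10e-05). In IL-4+LPS its mean also stood 3.94-fold over the control mean, although that comparison was not tested. Lta4h was 1.30-fold higher than in LPS (log2 difference 0.36, SE 0.0782, limma adjusted p = 0.00572), still below every control sample.

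Compared with LPS alone, Alox5ap was 1.63-fold lower in pretreated cells (log2 difference -0.70, SE 0.0552, limma adjusted p = 6.22e-06). Alox5 was at 0.160, 0.325 and 0.273 FPKM in IL-4+LPS, below every LPS sample, yet the difference of -0.25 did not pass (interval -0.64 to 0.13, limma adjusted p = 0.307). Ltc4s was at 1.97, 1.87 and 2.73 FPKM (difference -0.06, interval -0.62 to 0.51, limma adjusted p = 0.903). Cysltr1 was at 7.01, 2.37 and 2.31 FPKM, a difference of -0.75 from LPS (interval -1.69 to 0.20, limma adjusted p = 0.220). Without IL-4+LPS replicate 1 it was -1.17 (limma adjusted p = 0.0471), and with replicates 2 and 3 only, -0.82 (0.00276). With the replicate number as a block it was -0.75 (limma adjusted p = 0.000966).

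Ordered by mean level, as a description only, Alox5ap went from control through LPS and IL-4 to IL-4+LPS. Lta4h went from IL-4 through control and IL-4+LPS to LPS. For Ltb4r1 the order was IL-4, IL-4+LPS, control and LPS. The steps from LPS to IL-4 for Alox5ap, and between control and IL-4+LPS for Lta4h and Ltb4r1, were not tested. The step of Ltb4r1 from control to LPS was not called under median scaling or quantile normalization. No order is given for Alox5, Ltc4s and Cysltr1, whose groups overlapped.

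None of the 6 tested genes passed the interaction, which asks whether IL-4 shifted expression by a different amount with and without LPS. With limma 0 of 6 were called and 0 had an unadjusted p under 0.05, against 9.20% of all rows called. Alox5 is among the 6, although it passed the filter only through control samples. For Alox5ap the interaction was 0.17 (interval -0.003 to 0.34, limma adjusted p = 0.216), and as a term tested for that gene alone its unadjusted p was 0.0114. Ltb4r1 gave -0.31 (interval -0.86 to 0.25, limma adjusted p = 0.521) and Lta4h 0.11 (interval -0.13 to 0.36, limma adjusted p = 0.605). With replicates 2 and 3 only, Alox5 gave 0.45 (limma adjusted p = 0.0295). Control replicates 2 and 3 are the samples that let Alox5 past the filter, so that value is not counted as a result.

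Alox15 was at or near 0 in every group. It read 0.0376, 0 and 0.0114 FPKM in control, 0, 0.0423 and 0.0216 in IL-4, 0, 0.0289 and 0.0263 in LPS, and 0, 0.0891 and 0.114 FPKM in IL-4+LPS. By the worth of 1 fragment in each library, these are about 2, 3, 3 and 9 fragments over the 3 samples of each group. The groups overlapped throughout, and with no filter on low values the limma adjusted p was 0.283 or higher in each of the 5 comparisons. A change in Alox15 was not detectable at this depth.

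The balance of the receptors differed by treatment within each sample, a ratio computed after the values had been seen. Ltb4r1 over Cysltr1 in FPKM was 0.0784 to 0.284 in control and 0.0243 to 0.188 in LPS. In IL-4 it was 0.991 to 2.86, and in IL-4+LPS 0.574 to 2.26. Every sample with IL-4 was above every sample without it, and the lowest value of each group was in replicate 1, where Cysltr1 was high. Cysltr2, which encodes the other cysteinyl leukotriene receptor, stood at 0.311 to 0.593 FPKM in control and at 1.66 to 2.23 FPKM in IL-4+LPS. Its ratio to Cysltr1 was 0.0408 to 0.0684 in control, 0.134 to 0.297 in IL-4, 0.0703 to 0.127 in LPS and 0.319 to 0.815 in IL-4+LPS.

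**Figure D3:**
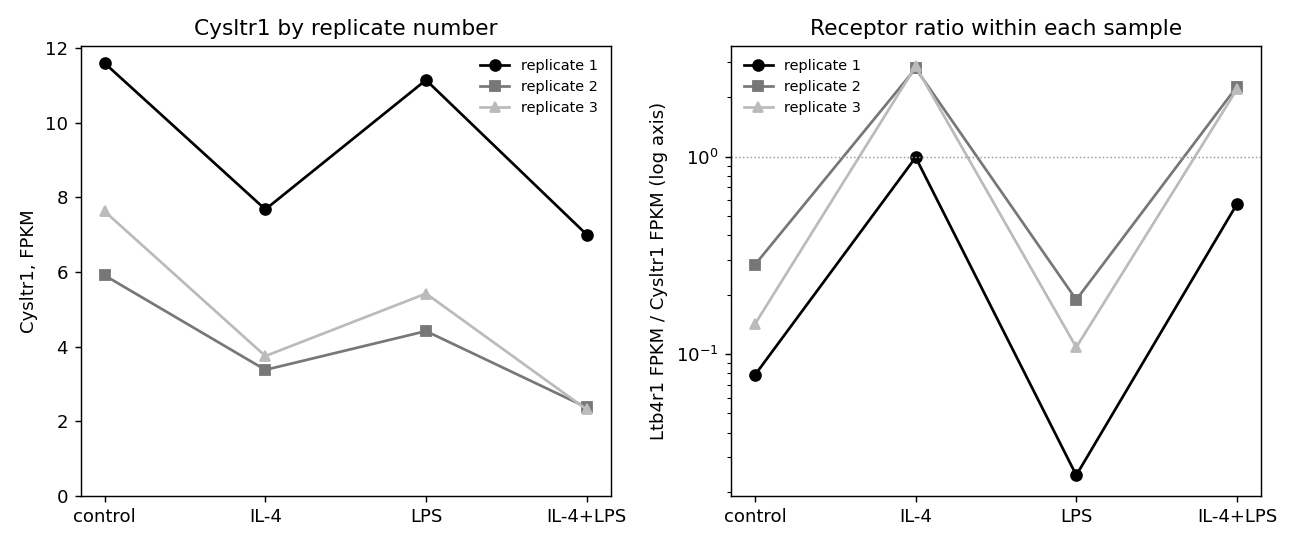
Left, Cysltr1 in FPKM (y axis, linear from 0) by treatment group (x axis), and right, the ratio of Ltb4r1 FPKM to Cysltr1 FPKM within each sample (y axis, log scale), with lines joining samples that carry the same replicate number and a dotted line at a ratio of 1. Replicate 1 of Cysltr1 lies above the others in all 4 groups, and the ratio is 0.574 to 2.86 in samples with IL-4 against 0.0243 to 0.284 in those without.

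A wider list of 43 genes of arachidonate supply, leukotriene conjugation, breakdown and sensing was examined next, of which 29 passed the filter. None of the other lipoxygenases on it (Alox12, Alox12b, Alox12e, Alox8 and Aloxe3) did. Of the 29, Ggt5 reached 1 FPKM only in control, Pla2g2e only in IL-4, Gpr31b only in LPS replicate 1 and Cysltr2 only in samples with IL-4, so these 4 passed only where they were high and are left out of the counts that follow. Of the other 25, IL-4 against control gave 6 higher and 7 lower (16.0% and 21.0% of all rows), with a median log2 difference of -0.09 against -0.05 over all rows. LPS against control gave 7 higher and 12 lower (16.9% and 57.7% of all rows, median -0.32 against -0.44), and IL-4+LPS against IL-4 gave 8 higher and 11 lower (15.0% and 57.9%, median -0.33 against -0.41). Both splits turned under median scaling, where all 29 tested genes gave 11 higher and 7 lower for LPS and 9 higher and 3 lower for LPS after IL-4, as against 8 and 13 and 9 and 13 without it. Quantile normalization gave 11 higher and 10 lower for LPS, and 9 higher and 6 lower for LPS after IL-4. The all-row median for LPS moved from -0.44 to -0.14 under median scaling and -0.12 under quantile normalization. For LPS after IL-4 it moved from -0.41 to -0.12 and -0.15. The shares of all rows called under these scalings are not given here, so the turned splits cannot be set against them. Between IL-4+LPS and LPS, 8 of the 25 were higher and 8 lower (15.0% and 15.8% of all rows, median 0.05 against -0.03).

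Genes that release and store arachidonic acid moved in both directions. With IL-4, 3 of the 7 counted rose and 1 fell, against 16.0% and 21.0% of all rows. Pla2g4a, the cytosolic phospholipase A2 that frees arachidonic acid for leukotriene synthesis, was at 4.69 to 6.28 FPKM in control, 7.91 to 10.2 in IL-4, 19.9 to 21.2 in LPS and 20.2 to 22.9 in IL-4+LPS. It rose with IL-4 by 0.61 (SE 0.110, limma adjusted p = 0.00158). Pla2g2e, a secreted phospholipase A2, was 0.67 higher (limma adjusted p = 0.00859), having passed the filter only through its IL-4 samples, and Lpcat3, which puts arachidonate into phospholipids, rose by 0.63 (0.00289). Lpcat2, which makes platelet-activating factor, was at 23.9 to 28.2 FPKM in control and 8.54 to 13.3 in IL-4, a log2 difference of -1.25 (SE 0.191, limma adjusted p = 0.000596). Under LPS the pretreated cells were again below the others, with a log2 difference of -1.59 (limma adjusted p = 0.000128).

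Pla2g15, a lysosomal phospholipase, had the largest fall of the wider list after LPS. It was at 104.9 to 124.5 FPKM in control and 20.3 to 22.8 in LPS (log2 difference -2.39, limma adjusted p = 1.64e-08), and at 119.9 to 152.5 in IL-4 and 44.5 to 50.1 in IL-4+LPS (-1.53, limma adjusted p = 3.99e-07). IL-4+LPS exceeded LPS by 1.08 (limma adjusted p = 2.17e-05). Pla2g6, a calcium-independent phospholipase A2, fell by 0.89 with LPS and by 1.03 with LPS after IL-4 (limma adjusted p = 0.000101 and 3.81e-05).

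Cotl1, whose protein binds 5-lipoxygenase and actin, and the glutathione peroxidases Gpx1 and Gpx4, which reduce lipid hydroperoxides, were lower after LPS (3 of 3, against 57.7% of all rows) and higher in IL-4+LPS than with LPS alone (3 of 3, against 15.0%). Gpx1 was not called for LPS under median scaling (-0.46, limma adjusted p = 0.216) nor between IL-4+LPS and LPS under quantile normalization (0.82, 0.0513). Cotl1 was at 367.9 to 478.9 FPKM in control, 198.9 to 235.1 in LPS and 316.4 to 386.4 in IL-4+LPS. Its LPS difference was -0.98 (limma adjusted p = 7.70e-05), and after IL-4 it was -0.70 (0.000932), or -0.34 and not called under median scaling (0.0558). Gpx1 was 0.91 higher in IL-4+LPS than in LPS (SE 0.312, limma adjusted p = 0.0480), with values of 192.6 to 316.7 FPKM in LPS and 351.3 to 598.5 FPKM in IL-4+LPS.

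Of the 7 counted genes for conjugation, export and processing of cysteinyl leukotrienes, LPS raised 3 and lowered 2, against 16.9% and 57.7% of all rows. Under median scaling it raised 4 and lowered 0, but the share of all rows under that scaling is not given here. Abcc1, the exporter of leukotriene C4, was at 62.6 to 67.6 FPKM in control, 32.5 to 34.9 in IL-4, 107.9 to 135.0 in LPS and 61.8 to 78.8 in IL-4+LPS. It passed the test in all 4 pairwise comparisons. Dpep3, a membrane dipeptidase, rose by 1.72 between IL-4 and IL-4+LPS (limma adjusted p = 7.36e-06). Of the 4 tested genes of breakdown, IL-4 raised none and lowered 2 (1 under median scaling), against 16.0% and 21.0% of all rows, with Cyp4f16, a cytochrome P450 of the fatty acid omega-hydroxylase family, at -1.21 (limma adjusted p = 1.89e-05).

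Of the 4 counted genes listed as other receptors of lipoxygenase products, LPS raised 3 and lowered none, against 16.9% and 57.7% of all rows. Fpr1, which is among the 3, was on the list but is a receptor of formyl peptides, not of a lipoxygenase product. Fpr2, a formyl peptide receptor that also senses lipoxin A4, went from 2.05 to 2.08 FPKM in control to 153.2 to 170.2 FPKM in LPS (log2 difference 5.75, limma adjusted p = 1.24e-08). IL-4 lowered it by a log2 difference of -1.22 without LPS (limma adjusted p = 0.00232). Fpr1, a formyl peptide receptor, rose by 4.84 with LPS (limma adjusted p = 3.05e-09) and by 4.18 with LPS after IL-4 (6.96e-09). These 2 values cannot be ranked, since the pseudocount compresses the second, from a mean of 0.173 FPKM in IL-4. The means rose 50.8-fold and 119-fold. Pretreatment lowered its LPS-induced level by a log2 difference of -1.60 (limma adjusted p = 2.61e-05). Gpr18, named as a receptor for a lipid mediator made from omega-3 fatty acids, rose from 0.820 to 1.28 FPKM in control to 8.30 to 15.8 FPKM in LPS (2.56, limma adjusted p = 1.20e-06). It was at 0.876 to 1.29 FPKM in IL-4+LPS, a log2 difference of -2.51 from LPS (limma adjusted p = 7.85e-06). Cysltr2, which passed the filter only through samples with IL-4, was 0.89 higher in IL-4+LPS than with LPS alone (limma adjusted p = 0.000224).

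**Figure D4:**
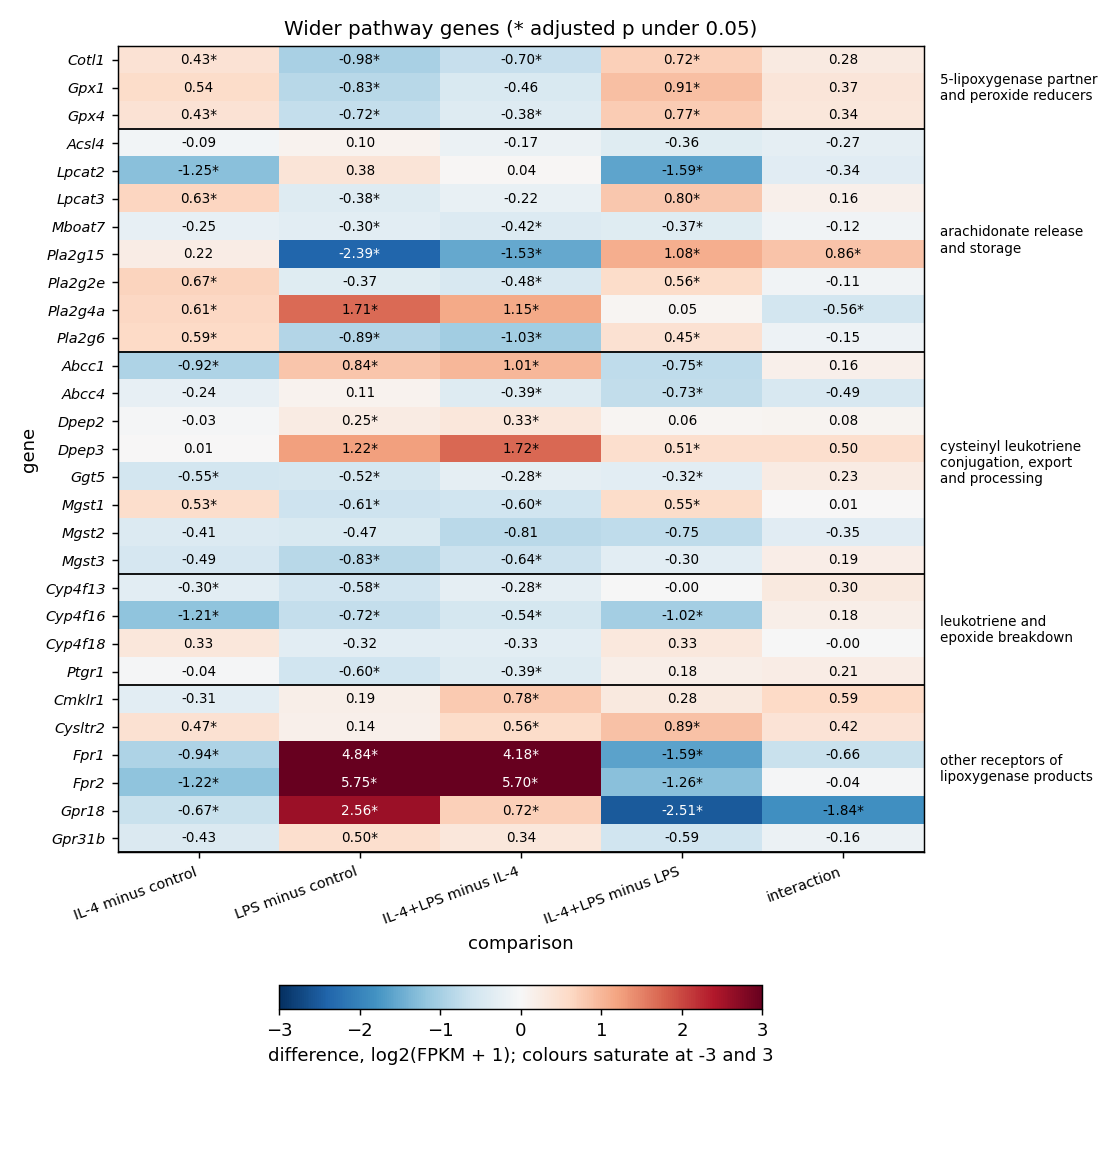
Log2(FPKM + 1) differences of the 29 tested genes of the wider list (rows, grouped by role) in the 4 pairwise comparisons and the interaction (columns), with red for higher, blue for lower and an asterisk where the limma adjusted p was under 0.05. Fpr2 and Fpr1 have the darkest red cells after LPS, and Pla2g15, Gpr18 and Pla2g4a are the 3 genes marked in the interaction column.

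As a description across the 12 samples, which share the 4 treatments, the rows closest to each gene were named from 10929 rows with a group mean of at least 1 FPKM. Ltb4r1 was closest to Ap2m1 (Pearson r = 0.991) and Sqle (0.989), Alox5ap to Gmip (0.991) and Tmem8 (0.990), and Lta4h to Tnfsf12 (0.993) and Cdk4 (0.992). Cysltr1 was closest to Rabep1 (0.989) and Rp2h (0.987), and Alox5 to Pcif1 (0.961) and Ctsf (0.949). Ltc4s had no close partner of that order, its highest values being 0.804 with Atp10d and 0.790 with D19Ertd737e. Alox5 and Alox5ap, the enzyme and its helper, had r = 0.822 with each other over the same 12 samples.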

How the data were processed

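Poly-A RNA was sequenced from 12 samples of mouse BMDMs, 3 in each of 4 groups taken from the sample labels, with unstranded TruSeq libraries. The authors deposited FPKM per gene and sample, made with TopHat2 2.0.7 and Cufflinks 2.0.2 on mm10 per the submitters' processing notes; the annotation and library totals are not given in the sources used here. Deposited FPKM were used unscaled. Rows with at least 1 FPKM in at least 1 sample were tested on log2(FPKM + 1) with limma 3.58.1 (R 4.3.3, empirical Bayes with an intensity trend, 4 group means fitted together, two-sided), and p-values were adjusted by Benjamini-Hochberg over all rows, with a threshold of 0.05. The code was tested on simulated data. Relative depth came from the FPKM step that 1 fragment is worth; error from counting is larger in the shallower libraries.

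All 7 genes were named in every comparison, with the 3 largest called rises and falls of the wider list and the 2 closest rows per gene; Abcc1, Gpr31b, Ggt5, the values of Cysltr2 and the within-sample ratios were chosen after values were seen. The members and lists were chosen with earlier results of these data known. Alternatives were another pseudocount, other filters and scalings, other sample sets, a replicate block and the study's kind of per-gene test (Tukey's post hoc test). For the interaction the per-gene test was a term fitted for each gene alone, called at an unadjusted p. Promoters are from RefSeq. Python 3.11.15 was used for summaries.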

Additional observations from a re-analysis of the deposited data

Results flagged for a closer look

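Of the 29 tested genes of the wider list, 3 passed the test of the difference itself, that is, IL-4 shifted them by a different amount with LPS than without it (limma interaction on log2(FPKM + 1), adjusted over all rows), a share near the 9.20% of all rows called. Gpr18 gave -1.84 (SE 0.287, limma adjusted p = 0.00293), with a mean lowered by IL-4 in both settings and more so under LPS. Its call was lost in 1 of 20 alternatives, at a pseudocount of 0.1 (-1.55, limma adjusted p = 0.0600). Pla2g15 gave 0.86 (SE 0.143, limma adjusted p = 0.00419), since IL-4+LPS exceeded LPS by 1.08 while IL-4 and control differed by 0.22, a difference that was not called. It was called in all 20 alternatives (0.76 to 0.94). Pla2g4a gave -0.56 (SE 0.155, limma adjusted p = 0.0491), being raised by IL-4 alone and not called between IL-4+LPS and LPS. Its call was lost in 12 of 20 alternatives (-0.69 to -0.45 over all of them, highest limma adjusted p = 0.114). These were no filter, a pseudocount of 0.1 and leaving out any 1 sample other than IL-4 replicate 2 or IL-4+LPS replicate 1.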

How the results depend on the processing

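The falls of Alox5ap in all 4 pairwise comparisons, the rise of Ltb4r1 with IL-4 in both settings, the falls of Lta4h with LPS in both settings and its rise from LPS to IL-4+LPS kept their direction and their call under all 21 alternatives run for each. The calls of Alox5, the IL-4 call of Lta4h and the LPS call of Ltb4r1 did not, as given with those genes, and the Ltb4r1 difference between IL-4+LPS and IL-4 lost its call under quantile normalization (-0.40, limma adjusted p = 0.104). Alox5 was not tested when 1 FPKM was required in at least 3 samples. FPKM below about 1 rest on few fragments in the shallower libraries, which limits Alox5, Alox15 and Ltb4r1 without IL-4. Where a count moved with fewer samples or another scaling, the cause was not tested.

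With Alox5 included, and Alox15 tested only with no filter, the number of the 7 genes called for IL-4 against control (4) was 2 with only the groups compared. It was 2 to 4 with 1 sample left out. For LPS against control (4) it was 2 under median scaling, no filter, quantile normalization and the per-gene Tukey test, and 2 to 4 with 1 sample left out, falling to 2 without control replicate 2 or LPS replicate 1. For IL-4+LPS against LPS (3) it was 5 with replicates 2 and 3 only. For the interaction (0) it was 1 there, which was Alox5, and 1 by the per-gene test at an unadjusted p. Over all 29 tested genes of the wider list, IL-4+LPS against IL-4 (22) gave 12 under median scaling. The interaction (3) gave 1 at a pseudocount of 0.1, 6 after quantile normalization and 10 with replicates 2 and 3 only. By the per-gene test it gave 10, but at an unadjusted p under 0.05, where the main limma fit gave 9. The share of all rows called under each alternative is not given here, so a moved count cannot be read as particular to these genes.

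Same-numbered samples of different groups deviated together weakly, but more than others did (18 pairs, r 0.002 to 0.386, mean 0.124, 11 over 0.1). Pairs with other numbers had a mean r of -0.060, and 9 of 12 samples were closest to their own number. Since no source ties a number to an animal, the main fit did not pair the samples, and a block is given as an alternative. With the replicate number as a block and Alox5 included, the called counts of the 6 tested genes were 5, 4, 4, 4 and 0. The order is IL-4 against control, LPS against control, IL-4+LPS against IL-4, IL-4+LPS against LPS and interaction. The wider list's interaction count was 9. The share of all rows called with the block is not given here, so these counts cannot be set against it. The block added Cysltr1 for IL-4 against control (-0.69, limma adjusted p = 0.00140), IL-4+LPS against IL-4 (-0.34, 0.0230) and IL-4+LPS against LPS (-0.75, 0.000966).

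Signs turned only for differences that were not called. Under quantile normalization these were Alox5 at 0.069, Ltc4s at 0.35 and Cysltr1 at 0.13 between IL-4+LPS and IL-4, Ltc4s at 0.27 and Cysltr1 at 0.16 between LPS and control, and Ltc4s at 0.0034 between IL-4+LPS and LPS. Under median scaling they were Ltc4s at 0.10 between IL-4+LPS and IL-4 and Cysltr1 at 0.046 between LPS and control. With replicates 2 and 3 only, Ltc4s was at 0.11 between IL-4+LPS and IL-4 and at 0.23 between IL-4+LPS and LPS, and the Lta4h interaction at -0.0011. The Ltb4r1 interaction was 0.13 at a pseudocount of 0.1. With 1 sample left out, Ltc4s ran from -0.37 to 0.058 between IL-4+LPS and IL-4, from -0.30 to 0.18 between IL-4+LPS and LPS and from -0.071 to 0.41 in the interaction, and the Cysltr1 interaction from -0.48 to 0.29.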
